A study of Arabidopsis thaliana with 36 samples.

Results

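A set of 25 genes of *Arabidopsis thaliana* was expressed in leaves of the accession Sei-0 and absent from leaves of the accession Col-0. The members were chosen by their values: an FPKM (fragments per kilobase of gene, scaled to the number of mapped fragments, a level that takes gene length into account) of at least 5 in Sei-0 and of at most 0.2 in Col-0 on all 3 days, which 25 of the 33557 genes in the tables met. Because these values made the choice, the difference between Sei-0 and Col-0 is given as a description. The level of the same genes in the hybrids was not used to choose them. It is set below against Sei-0 of the same day, a value the choice used, so these ratios are not independent of the choice. The samples were Fsc, the F1 hybrid with Sei-0 as the mother and Col-0 as the father, Fcs, the F1 hybrid with Col-0 as the mother and Sei-0 as the father, and the inbred parents Sei-0 and Col-0. Leaves of 4-week-old plants, grown with 8 h of light per day, were infiltrated with the bacterium *Pseudomonas syringae* pv. *tomato* DC3000 at 100000 c.f.u. per ml and taken at 1, 2 and 3 days post infiltration (dpi). Each of the 12 groups had 3 libraries of at least 30 leaves, and all 12 groups had received the bacterium, so no level before infection enters the comparisons.

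The deposited tables hold 1 pooled FPKM value per group and day. They carry no spread between libraries and no depth, so no difference below has a test, and a call is a fold of at least 1.5. The tables of the 3 days were normalized separately, and levels were therefore set against Sei-0 of the same day. In whole leaves, fewer cells of a type and less RNA per cell cannot be told apart. The leaf label fitted its markers: RBCS1A, the small subunit of Rubisco, lay between 4916 and 17570 FPKM over the 12 groups, and the defining genes of root, flower, pollen and seed lay at 0.43 FPKM or less.

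Accessions of a species differ in which genes they transcribe. An F1 hybrid holds 1 copy of each nuclear gene from each parent, and where only 1 parental copy is transcribed, at an unchanged rate, the hybrid is expected to hold 50% of the level of the expressing parent, called the single-copy value here. FPKM values of whole genes do not separate the parental copies. The reads were aligned to the genome of Col-0, so the set can only hold genes that have a locus in that genome.

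Some of the sequences behind the set are shown first, read from the TAIR10.1 assembly and its annotation, 5′ to 3′ along the strand of the gene. They are the 250 bases before the start of AT5G15360, which had the highest Sei-0 level among the members of at least 400 bases, of AT5G36900, which held the motif described next on the opposite strand, and of SADHU5-2, the member that differed between the hybrids on all 3 days. Capitals mark a W-box, TTGACC or TTGACT on either strand, the motif bound by WRKY transcription factors of plant defence. AT5G15360 held 2, AT5G36900 held 1 on the opposite strand, and the window of SADHU5-2 held none.
AT5G15360, chr5:4989183-4989432, minus strand: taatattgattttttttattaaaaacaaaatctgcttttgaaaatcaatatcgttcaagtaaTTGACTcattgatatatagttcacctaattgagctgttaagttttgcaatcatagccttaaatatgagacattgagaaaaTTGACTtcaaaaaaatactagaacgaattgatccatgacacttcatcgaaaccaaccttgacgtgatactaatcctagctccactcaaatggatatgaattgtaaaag
AT5G36900, chr5:14546674-14546923, plus strand: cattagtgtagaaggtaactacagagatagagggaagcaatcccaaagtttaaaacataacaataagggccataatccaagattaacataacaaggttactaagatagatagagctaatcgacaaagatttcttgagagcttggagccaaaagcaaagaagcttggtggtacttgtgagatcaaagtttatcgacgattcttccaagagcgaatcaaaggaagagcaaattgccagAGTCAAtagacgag
SADHU5-2, chr5:9957641-9957890, minus strand: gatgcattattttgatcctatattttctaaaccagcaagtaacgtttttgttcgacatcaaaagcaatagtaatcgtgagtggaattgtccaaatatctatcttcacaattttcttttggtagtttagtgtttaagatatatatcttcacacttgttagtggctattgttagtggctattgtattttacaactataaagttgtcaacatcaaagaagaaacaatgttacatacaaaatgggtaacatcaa

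A further pair of sequences shows a shared interval and a very short gene. The first is the whole interval of 63 bases between the divergent members AT3G29078 and AT3G29080, on the plus strand, and the second is the entire gene AT3G15251, 114 bases on the plus strand, which forms 38 codons with a stop only at the end. Capitals again mark the W-box motif: the interval held none, and AT3G15251 held 1 match on each strand.
AT3G29078 to AT3G29080, chr3:11069289-11069351: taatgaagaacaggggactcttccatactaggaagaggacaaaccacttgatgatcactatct
AT3G15251, chr3:5137205-5137318: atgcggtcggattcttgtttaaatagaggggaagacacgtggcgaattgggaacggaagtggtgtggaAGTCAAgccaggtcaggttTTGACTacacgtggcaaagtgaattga

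Over all members, a W-box was found in 7 of the 25 windows that run from 250 bases before the annotated start to 50 bases after it (28%). The share was 33.2% of 10211 windows of all genes at 5 FPKM or more in Sei-0 and 31.2% of 28625 windows of all genes, so the members did not hold the motif more often. A match of 6 letters is a description of the sequence and not a bound site.

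The members were spread over all 5 chromosomes, with 1 on chromosome 1, 4 on chromosome 2, 8 on chromosome 3, 4 on chromosome 4 and 8 on chromosome 5. In Sei-0 their levels lay between 5.43 and 107.5 FPKM. Of the 25, 12 were listed at 0 in Col-0 on at least 1 day, and AT3G04390, AT3G15251 and AT5G52067 were listed at 0 in Col-0 on all 3 days. At the edge of the choice, the lowest Sei-0 level was 5.43 FPKM for AT2G04290 and 6.03 for AT3G46190 inside it, against 4.83 for AT4G03530 and 4.47 for AT2G11280 outside it. On the Col-0 side, AT2G20600 lay near the limit inside it, with a highest level of 0.167 FPKM, against 0.233 for AT4G16215 and 0.252 for AT1G03710 outside it.

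**Figure D1:**
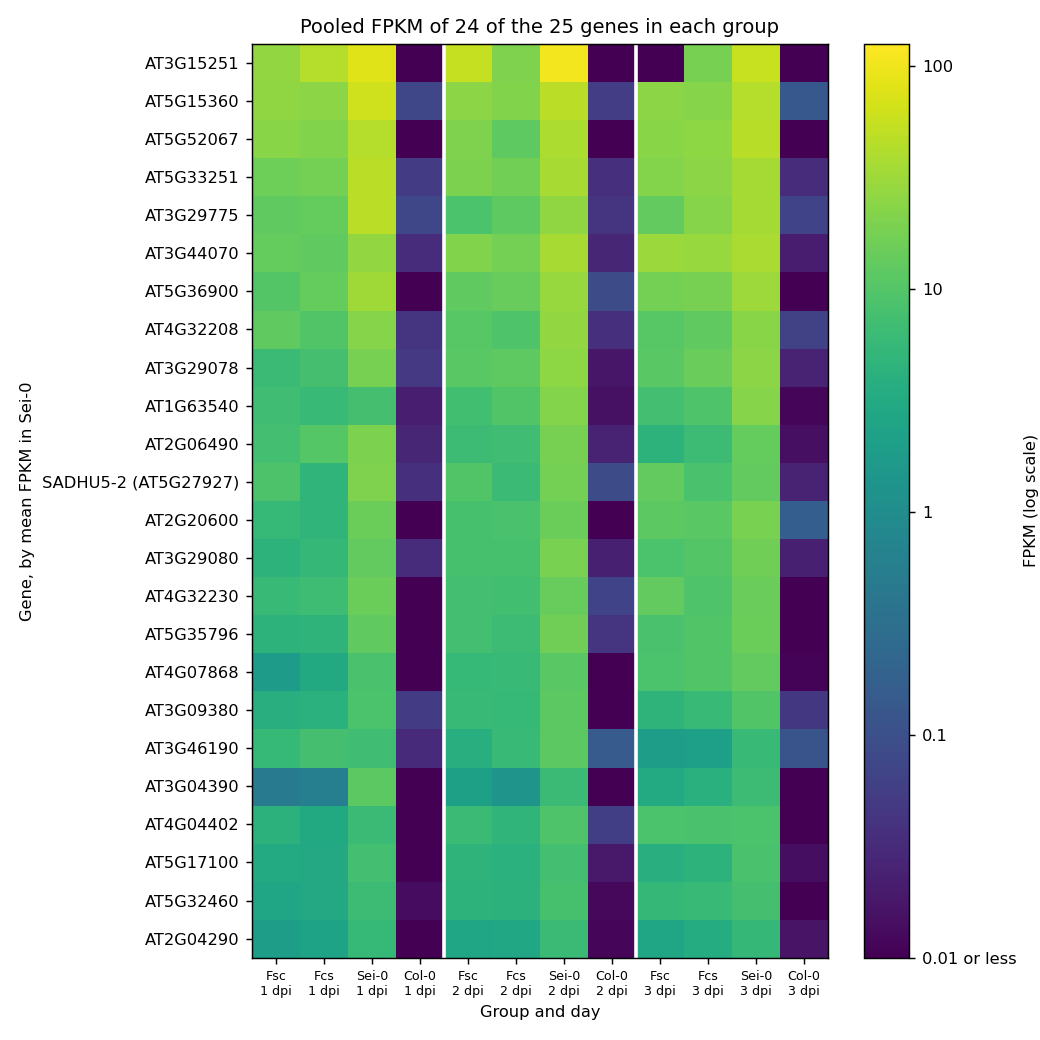
Pooled FPKM (colour, log scale, values of 0.01 or less in the darkest colour) of 24 of the 25 genes, ordered by mean level in Sei-0, in Fsc, Fcs, Sei-0 and Col-0 at 1, 2 and 3 dpi. Hybrid columns lay between the columns of the parents, with the exceptions of AT3G15251 at 0 in Fsc at 3 dpi, AT3G46190 in Fcs at 1 dpi and SADHU5-2 in Fsc at 3 dpi.

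By the annotation, 16 members were protein-coding genes and 9 were pseudogenes, of which 3 are annotated as transcribed. Pseudogenes and genes of transposable elements made up 36% of the members, against 0.517% of the 12389 annotated genes at 5 FPKM or more in Sei-0. Another 6 members (24%) had no known product, against 6.08% of those genes. No member had a product in the classes of NB-LRR immune receptors, receptor-like kinases, other kinases, F-box proteins, cytochrome P450 enzymes or UDP-glycosyltransferases. Among those genes the shares of these classes were 0.42% (52 genes), 0.83%, 4.73%, 0.61%, 0.64% and 0.29%, in the same order. With 25 members, an absence from classes of these sizes does not set the members apart. The remaining 10 members had a named product, each of a different kind.

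Positions are as the tables give them on TAIR10. AT5G32460 (chr5:12081803-12084148) encodes a protein of the plant B3 family of DNA-binding transcription factors. AT5G17100 (chr5:5623021-5624800) belongs to the cystatin superfamily, whose members include inhibitors of cysteine proteases, and AT3G09380 (chr3:2885138-2886116) to the MIP18 family, known from the assembly of iron-sulphur clusters. AT4G32208 (chr4:15558527-15559650) encodes an HSP70-family protein, the family of chaperones that bind unfolded polypeptides, and AT3G44070 (chr3:15828177-15829088) a glycosyl hydrolase of family 35, the family of plant beta-galactosidases. AT4G04402 (chr4:2164007-2165404) is annotated as a phosphorelay mediator, a kind of protein that acts in the signalling route of cytokinin. AT3G46190 (chr3:16965889-16967345) encodes a TRAF-like protein, AT1G63540 (chr1:23566958-23569495) a hydroxyproline-rich glycoprotein, a class found in cell walls, and AT3G04390 (chr3:1165375-1165765) a protein of the aldehyde oxidase and xanthine dehydrogenase type, of 391 bases. The pseudogenes include SADHU5-2 (AT5G27927, chr5:9956859-9957640), of the Sadhu family of non-coding retrotransposons, AT5G33251 (chr5:12499072-12500433), a relic of a beta-galactosidase-related gene, and AT5G35796 (chr5:13968537-13969932), a relic of a protein kinase gene.

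In the hybrids, the members were expressed between the parents. Of the 150 hybrid values, 149 lay above Col-0 and 148 below Sei-0. In both hybrids on all 3 days, 22 members lay between the parents. The choice placed the Col-0 level far below the Sei-0 level, so a wide range of hybrid levels would lie between the parents. These counts therefore follow largely from the choice. The share over all genes was not computed, so they do not set the members apart. Expressed as a percentage of the single-copy value of the same day, so that 100% is 50% of the Sei-0 level and 200% is the full Sei-0 level, 120 of the 150 values lay within 1.5-fold of 100%. By hybrid and day, 68% to 88% of the members lay in this range. The background was all 14794 genes with a mid-parent value (the mean of Sei-0 and Col-0) of at least 2.5 FPKM on all 3 days. Of these genes, 66.7% to 85.3% lay within 1.5-fold of the mid-parent value, so the members were close to the background. In all 6 values, 10 members stayed within 1.5-fold of the single-copy value, and the other 15 left this range at least once. The same count over all genes was not made, so whether the members left this range more often than other genes cannot be said. With 1 pooled value per group, how far these departures exceed the spread between libraries cannot be given.

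**Figure D2:**
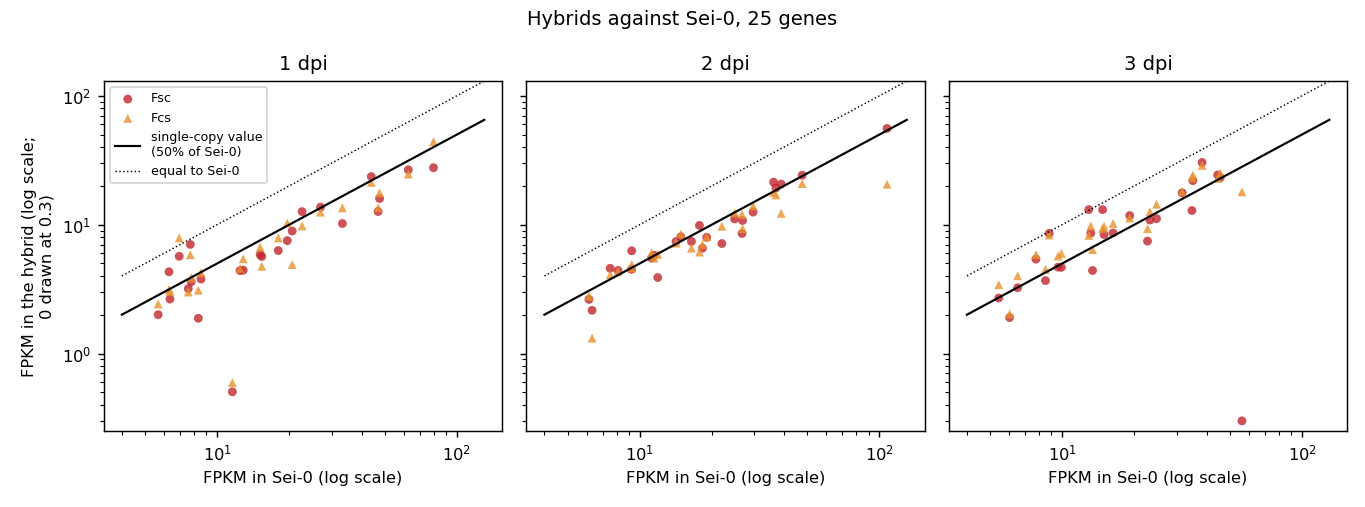
FPKM in Fsc (circles) and Fcs (triangles) against FPKM in Sei-0 of the same day, both on log scales, for the 25 genes at 1, 2 and 3 dpi. The solid line is the single-copy value (50% of Sei-0) and the dotted line is equality with Sei-0. Of the 150 points, 120 lie within 1.5-fold of the solid line. Of all genes, 66.7% to 85.3% by hybrid and day lay within 1.5-fold of the mid-parent value. The point at the floor at 3 dpi is AT3G15251, listed at 0 in Fsc.

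The median of the members lay below the single-copy value at 1 dpi in both hybrids. At 3 dpi it was near that value in Fsc and above it in Fcs. In Fsc the median was 77.5% of the single-copy value at 1 dpi (quartiles 69.2 and 92.5), 98.2% a day later (83.8 and 106) and 102% at 3 dpi (90.0 and 125). In Fcs it was 86.5% on day 1 (74.3 and 98.8), 91.9% on day 2 (80.0 and 99.4) and 121% on day 3 (109 and 130). From 1 to 3 dpi the percentage was higher for 19 members in Fsc, for 21 in Fcs and for 19 in both, and the percentages of 1 day share that day's Sei-0 value. Across 14794 genes with a mid-parent value (the mean of Sei-0 and Col-0) of at least 2.5 FPKM on all 3 days, 48.6% in Fsc and 47.5% in Fcs had a higher ratio to mid-parent at 3 than at 1 dpi.

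Those 14794 genes stayed near the mid-parent value, with a median in Fsc of 98.4%, 96.5% and 95.8% at 1, 2 and 3 dpi and in Fcs of 100.3%, 97.7% and 96.6%. The mirror set of 77 genes, at 5 FPKM or more in Col-0 and 0.2 or less in Sei-0, had a median, against 50% of Col-0, of 88.8%, 109% and 106% in Fsc and of 96.8%, 98.7% and 92.6% in Fcs. A further set of 79 genes was at least 4-fold higher in Sei-0 but present in Col-0, and its median against the mid-parent value was 93.6%, 89.4% and 82.7% in Fsc and 102%, 98.4% and 103% in Fcs. At 1 dpi the Sei-0 set had the lowest median of these sets in both hybrids, and at 3 dpi in Fcs the highest; the other sets did not share the upward order of the days in both hybrids. These differences between sets have no test, since 1 pooled value per group gives none.

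**Figure D3:**
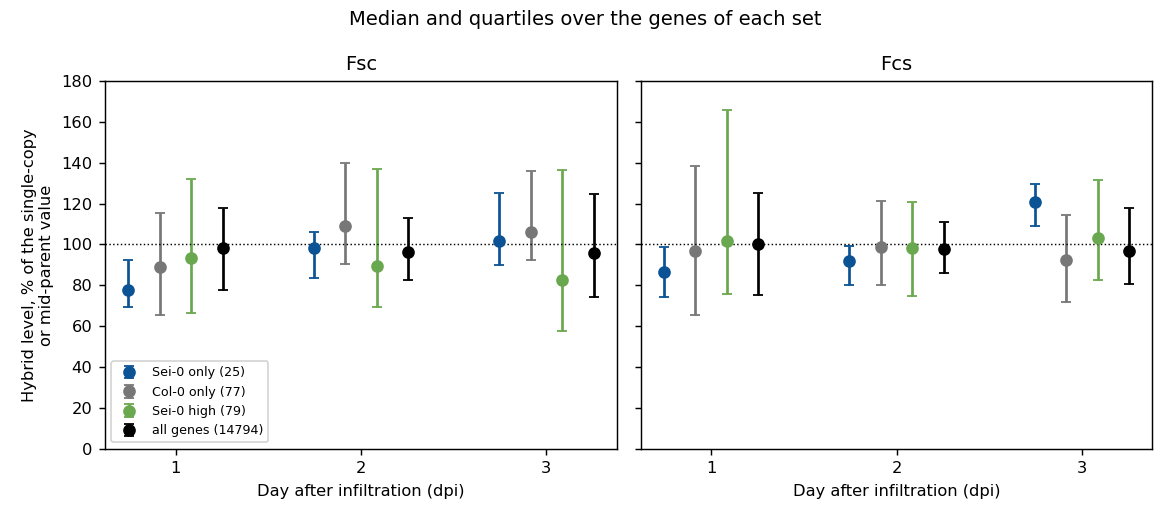
Median (point) and quartiles (bars) of the hybrid level, in % of the single-copy value, 50% of the expressing parent (Sei-0-only and Col-0-only genes) or of the mid-parent value (Sei-0-high genes and all genes), for Fsc and Fcs at 1, 2 and 3 dpi. The median of the Sei-0-only genes was 77.5% (Fsc) and 86.5% (Fcs) on day 1, but 102% (Fsc) and 121% (Fcs) on day 3, while all genes stayed between 95.8% and 100.3%.

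Counts of members past 1.5-fold were small and close to the background of all genes against the mid-parent value. At 1 dpi, 2 members in Fsc lay at least 1.5-fold above the single-copy value (background 9.05%) and 4 below (16.1%), and in Fcs 2 lay above (13.3%) and 4 below (19%). At 2 dpi none lay above in Fsc (7.36%) and 3 below (11.6%), and in Fcs none lay above (6.29%) and 3 below (8.44%). At 3 dpi 4 lay above in Fsc (14.1%) and 4 below (19.2%), and in Fcs 3 lay above (8.35%) and 1 below (13.1%). With 25 members, 1 gene is 4% of the set, so these counts do not set the members apart.

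The MIP18-family gene AT3G09380 stayed near the single-copy value in both hybrids. AT3G09380 had 3.78, 5.78 and 4.68 FPKM in Fsc and 4.23, 5.50 and 5.70 FPKM in Fcs, against 8.55, 11.5 and 9.61 FPKM in Sei-0 and at most 0.0538 FPKM in Col-0, which is 88.5% to 119% of the single-copy value. Every hybrid value lay between the parents.

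AT5G15360, of unknown product, was the member with the highest Sei-0 level among those of at least 400 bases. It had 26.6, 24.1 and 24.3 FPKM in Fsc and 24.7, 20.8 and 22.8 FPKM in Fcs at 1, 2 and 3 dpi, against 62.7, 47.6 and 44.5 FPKM in Sei-0 and 0.0753, 0.0560 and 0.135 FPKM in Col-0. Its percentages of the single-copy value lay between 78.8% and 109%. AT5G36900, also of unknown product, had 10.2, 12.5 and 17.6 FPKM in Fsc and 13.5, 13.97 and 18.1 FPKM in Fcs, against 33.3, 29.7 and 31.6 FPKM in Sei-0 and at most 0.0888 FPKM in Col-0. Its percentages of the single-copy value were 61.3%, 84.2% and 112% in Fsc and 81.2%, 94.1% and 114% in Fcs.

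The cystatin-family gene AT5G17100 had 3.18, 4.58 and 3.68 FPKM in Fsc and 3.00, 4.09 and 4.49 FPKM in Fcs, against 7.57, 7.53 and 8.51 FPKM in Sei-0 and at most 0.0191 FPKM in Col-0. The percentages of the single-copy value lay between 79.2% and 122%. The B3-family gene AT5G32460 had 2.64, 4.41 and 5.40 FPKM in Fsc and 3.03, 4.33 and 5.86 FPKM in Fcs, against 6.35, 8.12 and 7.76 FPKM in Sei-0 and at most 0.0137 FPKM in Col-0. It lay below the single-copy value in both hybrids at 1 dpi, but at 139% in Fsc and 151% in Fcs at 3 dpi.

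**Figure D4:**
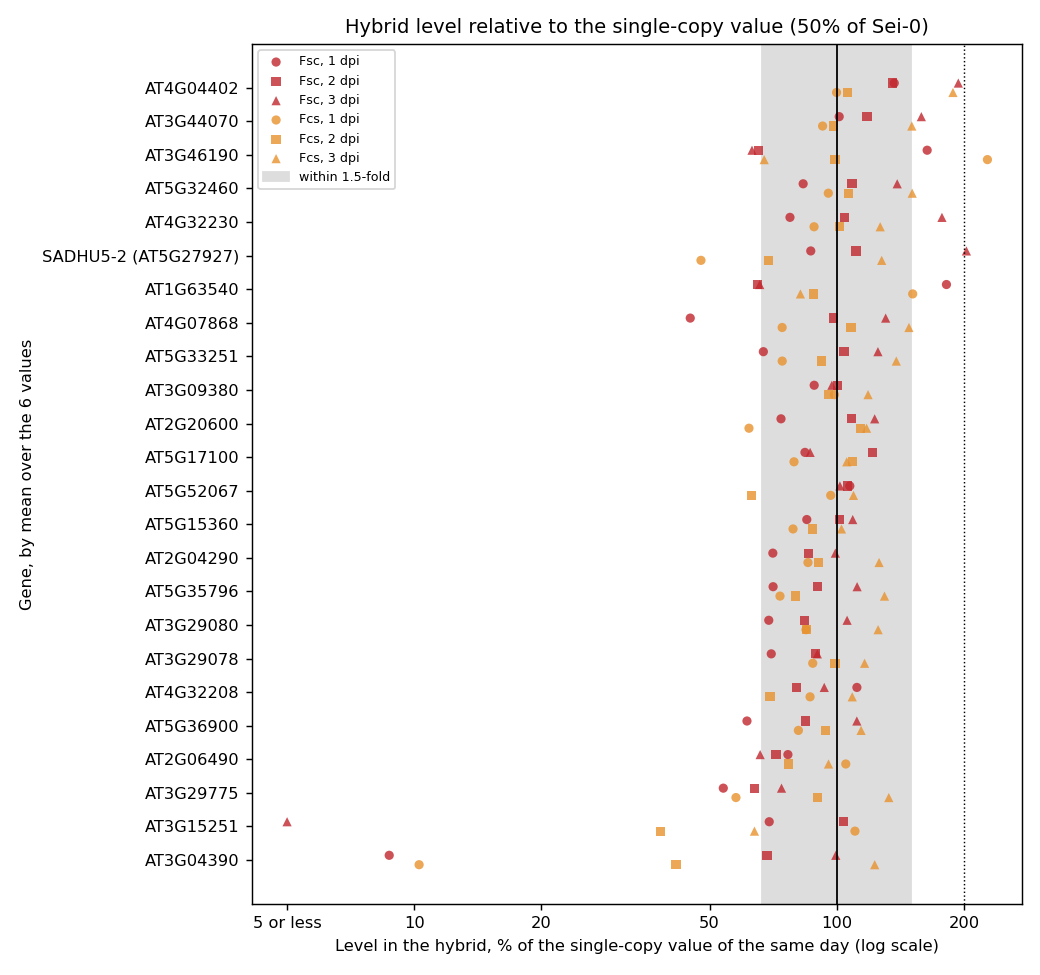
Level of 24 of the 25 genes in Fsc (red) and Fcs (orange) at 1 (circle), 2 (square) and 3 dpi (triangle), in % of the single-copy value of the same day (log scale), ordered by the mean of the 6 values. The solid line is the single-copy value, the dotted line the full Sei-0 level and the grey band 1.5-fold around the solid line; 9 of these genes have all 6 points in the band, and AT3G04390 and AT3G15251 reach farthest below it.

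Above the single-copy value, the gene with the highest mean percentage was AT4G04402, the phosphorelay mediator. It had 4.30, 6.26 and 8.55 FPKM in Fsc and 3.14, 4.90 and 8.30 FPKM in Fcs, against 6.29, 9.25 and 8.81 FPKM in Sei-0 and 0, 0.0582 and 0 FPKM in Col-0. At 3 dpi the hybrids were thus at 194% in Fsc and 188% in Fcs of the single-copy value, near the full Sei-0 level. The glycosyl hydrolase gene AT3G44070 had 13.7, 21.3 and 30.4 FPKM in Fsc and 12.5, 17.8 and 28.8 FPKM in Fcs, against 27.0, 36.2 and 38.3 FPKM in Sei-0 and at most 0.0337 FPKM in Col-0. It was near the single-copy value at 1 dpi, but at 159% in Fsc and 151% in Fcs at 3 dpi.

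At 1 dpi the genes at least 1.5-fold above the single-copy value were AT3G46190 and AT1G63540, and both were below it in Fsc on the later days. The TRAF-like gene AT3G46190 had 5.68, 3.88 and 1.90 FPKM in Fsc and 7.89, 5.89 and 2.03 FPKM in Fcs, against 6.94, 11.9 and 6.03 FPKM in Sei-0 and 0.0312, 0.150 and 0.118 FPKM in Col-0. Its Fcs value at 1 dpi, 227% of the single-copy value, was above Sei-0. The glycoprotein gene AT1G63540 had 7.02, 7.13 and 7.45 FPKM in Fsc and 5.84, 9.71 and 9.30 FPKM in Fcs, against 7.72, 22.0 and 22.7 FPKM in Sei-0 and at most 0.0223 FPKM in Col-0. Its percentages of the single-copy value were 182%, 64.8% and 65.7% in Fsc and 151%, 88.3% and 82.1% in Fcs.

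The lowest mean percentage was that of AT3G04390, of the aldehyde oxidase type. It had 0.505, 2.16 and 3.24 FPKM in Fsc and 0.594, 1.32 and 4.01 FPKM in Fcs, against 11.6, 6.32 and 6.51 FPKM in Sei-0 and 0 on all days in Col-0. Both hybrids were far below the single-copy value at 1 dpi, at 8.72% in Fsc and 10.3% in Fcs, and at 99.5% in Fsc and 123% in Fcs at 3 dpi. AT3G29775, a pseudogene of unknown origin, had 12.6, 8.53 and 12.9 FPKM in Fsc and 13.5, 12.001 and 23.1 FPKM in Fcs, against 46.9, 26.7 and 34.7 FPKM in Sei-0 and at most 0.0743 FPKM in Col-0. At 1 dpi it was at 53.9% of the single-copy value in Fsc and 57.7% in Fcs, and of its 6 values only Fcs at 3 dpi was above 100%, at 133%.

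The 4 members shorter than 400 bases are AT3G15251 (114 bases), AT2G20600 (235), AT5G52067 (330) and AT3G04390 (391), and FPKM divides by length, so a few fragments move them far. AT3G15251, the gene printed in full above, had 27.6, 55.7 and 0 FPKM in Fsc and 44.1, 20.6 and 17.9 FPKM in Fcs, against 79.8, 108 and 56.1 FPKM in Sei-0 and 0 on all days in Col-0. Its 2 hybrids changed places between 1 and 2 dpi, and it is listed at 0 in Fsc at 3 dpi. AT2G20600, a pseudogene, had 5.66, 8.04 and 11.8 FPKM in Fsc and 4.75, 8.45 and 11.2 FPKM in Fcs, against 15.3, 14.8 and 19.1 FPKM in Sei-0 and 0, 0 and 0.167 FPKM in Col-0. Of the 24 hybrid values of these short genes, 16 lay within 1.5-fold of the single-copy value, against 104 of 126 for the 21 longer members.

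Further members were AT2G04290, AT2G06490, AT3G29078, AT3G29080, AT4G07868, AT4G32208, AT4G32230, AT5G33251 and AT5G35796, with SADHU5-2 and AT5G52067 described below. The percentages of those 9 lay between 45.0% (AT4G07868 in Fsc at 1 dpi, 1.88 FPKM against 8.34 in Sei-0) and 177% (AT4G32230 in Fsc at 3 dpi, 13.1 FPKM against 14.7 in Sei-0). AT2G06490 lay below the single-copy value in Fsc on all days, at 65.9% at 3 dpi. AT2G04290, the member with the lowest Sei-0 level, was at 70.6% to 126% of it. The kinase relic AT5G35796 was at 70.7% to 130% and the beta-galactosidase relic AT5G33251 at 67.0% to 138%.

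The reciprocal hybrids carry the same nuclear genes and differ in their mother. The median ratio of Fsc to Fcs over the members was 0.90 at 1 dpi, 1.03 at 2 dpi and 0.86 at 3 dpi, against 0.98, 0.99 and 0.99 over all genes. Members lower in Fsc than in Fcs numbered 16, 11 and 19 of 25 at 1, 2 and 3 dpi. With a median ratio below 1 on each day, most of all genes were lower in Fsc too. Their exact share was not computed, so whether the counts of members differ from it cannot be said. At least 1.5-fold higher in Fsc were 1 member at 1 dpi (background 5.63%), 4 at 2 dpi (2.83%) and 1 at 3 dpi (2.53%). At least 1.5-fold lower in Fsc were 2 at 1 dpi (5.57%), 1 at 2 dpi (6.15%) and 2 at 3 dpi (6.81%).

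The retrotransposon SADHU5-2 was the 1 member past 1.5-fold in the same direction on all 3 days. Sadhu elements are known to be silenced in some *Arabidopsis* accessions and transcribed in others. SADHU5-2 had 8.92, 9.85 and 13.1 FPKM in Fsc and 4.90, 6.12 and 8.24 FPKM in Fcs at 1, 2 and 3 dpi, against 20.5, 17.7 and 12.9 FPKM in Sei-0 and 0.0366, 0.0906 and 0.0260 FPKM in Col-0. Fsc, in which Sei-0 is the mother, was 1.82, 1.61 and 1.59 times Fcs, and at 3 dpi Fsc reached the Sei-0 level. Of the 14794 genes, 87 (0.588%) were at least 1.5-fold higher in Fsc on all 3 days and 285 (1.93%) at least 1.5-fold lower. The 1 member is 4% of the set, so this count does not set the members apart. The 4 members higher in Fsc at 2 dpi also included AT3G15251, AT5G52067 and AT3G04390, all shorter than 400 bases.

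The surroundings of the members were less active than those of other expressed genes. Of the 100 flanking positions (2 genes on each side of each member), 50% held a gene at 0.2 FPKM or less in all 12 groups, against 22.5% around the 12424 genes at 5 FPKM or more in Sei-0. In 8 members (32%) at least 3 of the 4 flanking genes were silent in this sense, against 6.44%. Flanking genes that were themselves present in Sei-0 (1 FPKM or more) and absent in Col-0 (0.2 or less) stood beside 6 members (24%), against 0.853%. A flanking gene could itself be a member, and AT3G29078 and AT3G29080 are counted only through each other. Distinct flanking genes of this kind that were not members numbered 5. These shares describe position and carry no test. The comparison genes were not matched to the members by gene type. Pseudogenes and genes of transposable elements were 36% of the members and 0.517% of the annotated comparison genes.

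Such neighbours formed 2 short runs and 2 pairs. On chromosome 3, the members AT3G29078 and AT3G29080 are transcribed away from each other across the 63-base interval printed above. AT3G29078 had 6.29, 11.1 and 11.1 FPKM in Fsc and 7.89, 12.3 and 14.4 FPKM in Fcs, against 17.97, 24.9 and 24.7 FPKM in Sei-0. AT3G29080 had 4.43, 7.97 and 8.62 FPKM in Fsc and 5.43, 8.05 and 10.2 FPKM in Fcs, against 12.8, 19.0 and 16.3 FPKM in Sei-0. Both were at most 0.0482 FPKM in Col-0, and both were lower in Fsc than in Fcs on all 3 days.

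On chromosome 4, the members AT4G32208 and AT4G32230 have 5644 bases between them, the only other pair within 10 kb. Between them, the pseudogenes AT4G32215 (1.61, 2.27 and 2.28 FPKM in Fsc, 1.244, 1.247 and 2.53 in Fcs, against 4.53, 3.27 and 6.55 in Sei-0) and AT4G32220 (0.744, 0.883 and 0.912 FPKM in Fsc, 1.03, 0.941 and 1.04 in Fcs, against 2.23, 2.15 and 1.89 in Sei-0) had the same pattern at lower levels. The HSP70-family gene AT4G32208 itself had 12.6, 10.8 and 10.8 FPKM in Fsc and 9.77, 9.33 and 12.6 FPKM in Fcs, against 22.6, 26.8 and 23.2 FPKM in Sei-0 and at most 0.0646 FPKM in Col-0. AT4G32230, of unknown product, had 5.85, 7.39 and 13.1 FPKM in Fsc and 6.67, 7.18 and 9.33 FPKM in Fcs, against 15.1, 14.2 and 14.7 FPKM in Sei-0 and 0, 0.0673 and 0 FPKM in Col-0. The gene on the other side of AT4G32208, SDH3-2, which encodes a subunit of mitochondrial succinate dehydrogenase, showed the opposite pattern, with 4.89, 5.27 and 3.96 FPKM in Fsc and 4.73, 5.59 and 3.40 FPKM in Fcs, against 0.141, 0.0434 and 0.0101 FPKM in Sei-0 and 6.17, 11.5 and 9.39 FPKM in Col-0. A stretch of about 11 kb, from SDH3-2 to AT4G32230, thus held genes present in 1 parent and near 0 in the other. Within it, AT4G32212 was near 0 in every group. Beyond it, AT4G32240 and AT4G32250 were expressed in all groups.

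**Figure D5:**
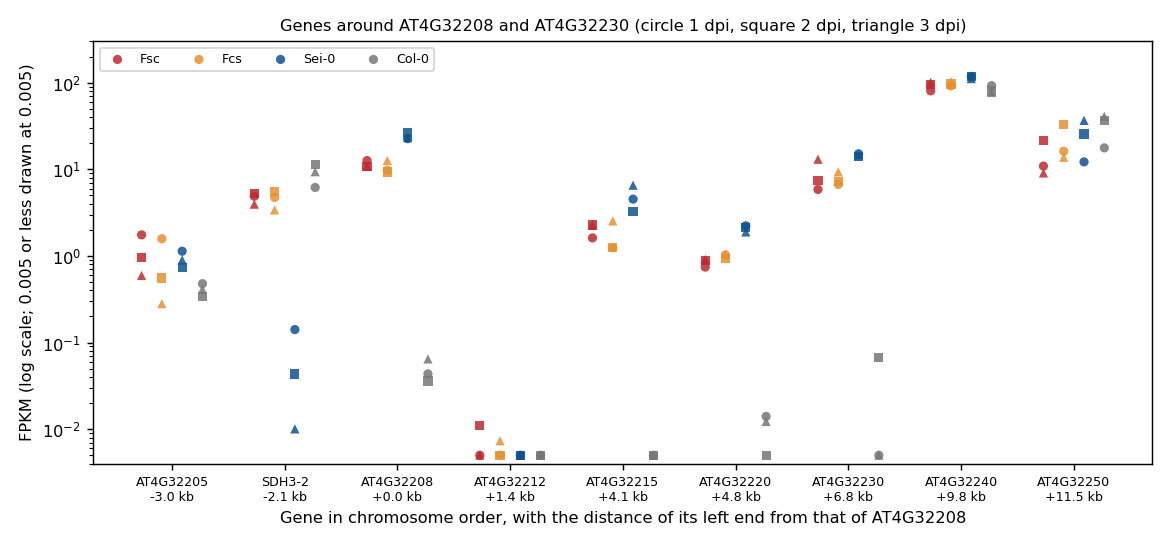
FPKM (log scale, values of 0.005 or less at the floor) of 9 neighbouring genes on chromosome 4 in Fsc, Fcs, Sei-0 and Col-0 at 1, 2 and 3 dpi, with the distance of each gene's left end from that of AT4G32208. AT4G32208, AT4G32215, AT4G32220 and AT4G32230 were expressed in Sei-0 and the hybrids and near 0 in Col-0, SDH3-2 in Col-0 and the hybrids, and AT4G32212 was near 0 in every group.

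On chromosome 5, the cystatin-family member AT5G17100 stood between AT5G17090 and AT5G17110 of the same family. AT5G17090 had 2.29, 3.23 and 2.67 FPKM in Fsc and 2.34, 2.17 and 2.14 FPKM in Fcs, against 3.19, 4.11 and 3.54 FPKM in Sei-0 and at most 0.0586 FPKM in Col-0, which placed it at 106% to 157% of the single-copy value. AT5G17110 had 0.608, 0.765 and 1.199 FPKM in Fsc and 0.885, 1.03 and 1.42 FPKM in Fcs, against 2.14, 1.92 and 1.99 FPKM in Sei-0 and 0 on all days in Col-0. The best match of AT5G17100 elsewhere in the genome was AT5G17110, at 83.0% identity over 1091 bases. The cystatin gene AT1G03710 on chromosome 1 was just outside the choice. On chromosome 3, AT3G15250 beside the 114-base gene AT3G15251 had 0.866, 0.610 and 0.240 FPKM in Fsc and 1.05, 0.452 and 0.394 FPKM in Fcs, against 2.16, 1.501 and 1.19 FPKM in Sei-0 and at most 0.0251 FPKM in Col-0.

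Copies elsewhere in the genome bear on how reads are assigned. A search of each member's genomic sequence found no other match for 10 members and at least 1 for 15, and 3 had a close copy, defined as at least 95% identity over at least 50% of the gene. AT4G32208 matched MTHSC70-2, a mitochondrial HSP70, at 99.0% over 589 bases, and MTHSC70-2 lay between 50.8 and 80.8 FPKM in all 12 groups, Col-0 included. AT4G07868 matched an unannotated locus on chromosome 4 at 97.2% over its whole length, and AT2G06490 matched AT3G30218, which was at 0.101 FPKM or less, at 96.2% over 1336 bases. For these 3 members, how reads were divided between the copies was not tested.

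The matches of some members had a like pattern. AT5G52067, a pseudogene of 330 bases, had 23.6, 20.6 and 23.2 FPKM in Fsc and 21.2, 12.2 and 24.97 FPKM in Fcs, against 43.9, 38.9 and 45.6 FPKM in Sei-0 and 0 on all days in Col-0. Its best match, at 91.0% over 324 bases, lies where AT4G19239, a relic of a beta-galactosidase-related gene, and AT4G19240 overlap. AT4G19239 had 113, 103 and 132 FPKM in Fsc and 111, 89.0 and 125 FPKM in Fcs, against 226, 211 and 224 FPKM in Sei-0 and 0.633, 0.219 and 0.203 FPKM in Col-0, and so missed the Col-0 limit on all 3 days. Its hybrid level was 84.1% to 118% of the single-copy value.

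Other matches were expressed in both parents or in neither. AE7, the MIP18-family relative of AT3G09380 that takes part in cytosolic iron-sulphur cluster assembly, had 58.0 to 59.9 FPKM in Fsc and 69.2 to 72.5 FPKM in Fcs, against 62.5 to 82.9 FPKM in Sei-0 and 35.8 to 38.0 FPKM in Col-0. The kinase gene AT1G65250, which the relic AT5G35796 matched at 87.0% over 1351 bases, had 13.5, 18.5 and 17.8 FPKM in Fsc and 13.6, 16.1 and 16.3 FPKM in Fcs, against 13.3, 20.01 and 21.2 FPKM in Sei-0 and 5.86, 8.21 and 8.03 FPKM in Col-0. AT5G49250, the relative of the relic AT5G33251, is listed at 0 in every group. AT5G33251 itself had 15.9, 19.2 and 21.9 FPKM in Fsc and 17.7, 16.99 and 24.3 FPKM in Fcs, against 47.6, 37.0 and 35.1 FPKM in Sei-0 and at most 0.0511 FPKM in Col-0.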

How the data were processed

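The mRNA-seq data cover 36 libraries of infiltrated leaves in 12 groups. By the study's methods, the authors trimmed adapters and low-quality reads, aligned the reads to TAIR10 with TopHat (the submitters' processing notes name Bowtie) and ran Cufflinks, Cuffmerge and Cuffdiff for the expression values; versions are not given in the sources used here. The deposited FPKM values, 1 per group and day over its 3 libraries, come from 1 table per day of 33557 genes with 6 comparisons each. Columns of the authors' own comparisons, which hold fold changes, test statistics, p-values and q-values, were not used. Depth per library is unknown from these files, and no interval could be given.

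Members and lists were chosen with earlier results of these data known. The rule was to name all members when there are 40 or fewer; 1 of the 25 is counted but not reported here. Ratios were computed from FPKM with no pseudocount. Function classes were assigned by words in the annotated product. Gene names, strands and sequences came from the TAIR10.1 assembly and RefSeq annotation, in which 32810 identifiers and all 25 members were found; 22 members shared a start or end with it. Copies were searched with BLAST 2.17.0 (E-value limit 1e-20). The selection was tested on simulated data. Python 3.11.15, NumPy 2.4.6, pandas 2.3.3 and Matplotlib 3.10.9 were used. Alternatives covered the thresholds, the fold, the reference, a pseudocount and the scaling of groups. Leaving out short members or members with a close copy was chosen after seeing the data.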

Additional observations from a re-analysis of the deposited data

How the results depend on the processing

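No paired analysis was possible because the tables hold 1 pooled value per group, which carries no replicate number; for the same reason no replicate could be left out. The 6 medians of the members relative to the single-copy value (50% of Sei-0) moved by less than 10% under all 42 alternative values (mid-parent reference, scaled groups, a pseudocount of 1 FPKM, Sei-0 at 10 FPKM or more, protein-coding members only, and, chosen after seeing the data, members of at least 400 bases and members without a close copy). The number of members was 59 with a Sei-0 limit of 2 FPKM and 15 with a limit of 10 FPKM, against 25. With a Col-0 limit of 0.1 FPKM it was 21, and with a Col-0 limit of 0.5 FPKM it was 37. Where the limits had to be met on at least 1 day it was 113. With a fold of 2 in place of 1.5, Fsc had 0, 0 and 1 members above it on days 1, 2 and 3. Members below it in Fsc numbered 2, 0 and 1. In Fcs at a fold of 2 there were 1, 0 and 0 above and 2, 2 and 0 below. With limits of 25% above and 20% below, Fsc had 3, 1 and 7 above and 13, 5 and 5 below on these days. Fcs then had 2, 0 and 11 above and 9, 7 and 2 below. The shares of all genes past these other limits, and past a fold of 2 between the hybrids, were not computed. The counts at other folds therefore only show how the limit moves them, and do not describe the members against other genes. Between the hybrids, a fold of 2 left 0 members higher and 0 lower in Fsc at 1 dpi, 1 higher and 0 lower at 2 dpi, and 0 higher and 1 lower at 3 dpi. With groups scaled to the same median, 14 of 18 such counts stayed within 1.5 times; the others were 1 above the single-copy value in Fcs at 1 dpi, 1 below it in Fsc at 2 dpi, 0 lower in Fsc than in Fcs at 2 dpi and 2 below it in Fsc at 3 dpi. The counts at a fold therefore rest on genes close to the limit. Whether the day-to-day differences exceed the spread between libraries cannot be known from pooled values, and in the 4 members shorter than 400 bases a few fragments move the FPKM far.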
